A study of Mus musculus with 6 samples.

Results

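The *Slfn* (Schlafen) genes and the p200 genes of the *Ifi* series are mouse gene families that are switched on by interferon in macrophages. The genes described here were the 10 listed names *Slfn1*, *Slfn2*, *Slfn3*, *Slfn4*, *Slfn5*, *Slfn8*, *Slfn9*, *Ifi203*, *Ifi204*, and *Ifi205*, taken wherever the gene name printed beside an array spot equaled one of them. On the array 9 of the 10 names were found, out of 34844 gene names in all. These 9 genes, 7 Schlafen and 2 p200, were read by 16 probes, each with 1 spot per array. No spot carried the name *Ifi205*.

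The cells were bone marrow–derived macrophages (BMDMs) from wild type female C57BL/6 mice, 6 to 8 weeks old per the labels, differentiated for 7 days in L929-conditioned medium. The groups were untreated BMDMs, BMDMs given LPS for 4 h at 100 ng/ml, and BMDMs given 10 μM of the USP7 inhibitor HBX41,108 for 30 min and then the same LPS (LPS+USP7i). One protocol field of the labels states the LPS figure per microliter, and the methods of the study give an older age range. Each group had 2 arrays from independent experiments, and whether LPS-only cells received the inhibitor's solvent is not given in the sources used here. All 6 arrays shared 1 slide, on which each group held its own position index, so slide position and treatment cannot be told apart. Of 59305 spots per array that were not controls, between 25002 and 27467 were well above background, and 0 were saturated. Only 2 arrays per group limit the precision of every value below.

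Schlafen proteins take their name from the German verb for sleeping, after the growth arrest that early members caused in T cells. The short forms (*Slfn1*, *Slfn2*), the intermediate forms (*Slfn3*, *Slfn4*), and the long forms with a helicase-like end (*Slfn5*, *Slfn8*, *Slfn9*) lie together in a gene cluster. The p200 proteins carry a DNA-binding HIN domain, mostly joined to a pyrin domain, and several of them sense DNA that appears in the cytosol or nucleus. In macrophages, LPS signaling through TLR4 leads to secretion of interferon β, which then acts back on the cells through the type I interferon receptor.

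In the coordinates of the scanner files (mouse build mm9), the 10 Schlafen probes lay within chr11:82765536-83028490, a stretch of 263.0 kb, and the 6 p200 probes within chr1:175677552-175854265, 176.7 kb long. No annotation of mm9 was used here, so exons and untranslated regions are not named. All 9 names are current RefSeq symbols, and the RefSeq transcript of 10 of the 16 probes carried the same symbol. The RefSeq transcripts listed for the 4 *Ifi203* probes matched no symbol. The brighter *Slfn5* probe and the dimmer *Ifi204* probe list no RefSeq transcript. Families of this kind can share sequence, so the probes of the 9 genes and of their relatives on the array, 33 probes in all, were set against each other. They were not set against transcripts, so a probe that matches another gene's transcript outside these probes would go unseen. A single pair shared an identical run of at least 15 bases. This was the brighter *Slfn8* probe and the dimmer *Slfn9* probe, whose best ungapped stretch was 35 bases long with 33 matches and a longest identical run of 19 bases. Its first 30 bases are shown because the *Slfn8* and *Slfn9* values could in part read each other's transcripts, which was not tested. Capitals mark the differences A12G and T16C, counted from 1 at the 5′ end of the printed stretch, with the *Slfn8* base first. The stretches lie on the minus strand at chr11:82815834-82815863 and chr11:82793932-82793961 (mm9).
*Slfn8* probe: gaaggacataaAtaaTtcccttaaagaaat
*Slfn9* probe: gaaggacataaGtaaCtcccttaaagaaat

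The label of the cells was checked against marker genes. All 8 macrophage markers on the array, led by *Csf1r*, were well above background on every array. Their summed normalized signal was 727800 and 719100 without treatment, 737900 and 746400 after LPS, and 625000 and 585000 in LPS+USP7i. The markers did not move as one. *Cd14* stood at 17.43 and 17.46 with LPS and at 15.98 and 16.26 in LPS+USP7i, and *Emr1*, *Csf1r*, *Fcgr1*, and *Mertk* were likewise lower on both LPS+USP7i arrays than on both LPS arrays. *Itgam* was higher on both, at 12.81 and 12.58 against 12.36 and 12.42, and for *Cd68* and *Lyz2* the groups overlapped. Of the 4 neutrophil markers, all 4 were above background on every array, with *Elane* brightest, and their sum lay between 3878 and 4523. Here too the genes differed: on both LPS+USP7i arrays *Elane* was higher than on both LPS arrays (11.77 and 11.90 against 11.09 and 11.36) and *Mpo* lower (6.49 and 4.84 against 8.65 and 6.67), while for *Ly6g* and *Camp* these groups overlapped. In the fibroblast, mast cell, NK cell, and dendritic cell lists no marker was above background on all 6 arrays, which does not show that such cells were absent. The dendritic cell sum, of which *Zbtb46* was the brighter gene, was 23.2 and 32.6 on the untreated arrays, 88.3 and 116 on the LPS arrays, and 70.6 and 81.1 on the LPS+USP7i arrays; *Zbtb46* was above background on both arrays of the latter groups and on 0 untreated arrays. B cell and T cell lists had 1 such marker each, *Cd79a* of 3 and *Cd3e* of 4. The B cell sum was higher on replicate 1 than on replicate 2 in every group, at 224 and 56.8 without treatment, 516 and 111 after LPS, and 307 and 74.4 in LPS+USP7i. The T cell sum stayed between 583 and 766 over the 6 arrays. The NK cell list summed to between 31.0 and 203, the fibroblast list to between 36.5 and 49.3, and the mast cell list to between 8.76 and 37.9. The part of other cells in the results below was not tested. A bulk array also cannot tell fewer cells expressing a gene from less RNA per cell.

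Levels are given as quantile-normalized log2 signal, replicate 1 before replicate 2. Probes differ in brightness for reasons of their sequence, so a level is read only against the same probe on other arrays. *Slfn1*, the founding short Schlafen gene, stood at 5.56 and 5.48 without treatment, 9.19 and 8.81 after LPS, and 7.21 and 7.45 in LPS+USP7i. *Slfn2*, the short form that keeps T cells and monocytes quiescent, stood at 13.92 and 13.70 without treatment, 16.15 and 15.86 after LPS, and 15.34 and 15.26 in LPS+USP7i. For both genes the LPS arrays were highest, the LPS+USP7i arrays lay between, and no groups overlapped. *Slfn1* rose by 3.48 on the log2 scale with LPS (standard error 0.17, adjusted p = 0.00330), an 11.2-fold increase, and fell by 1.67 in LPS+USP7i relative to LPS (standard error 0.17, adjusted p = 0.0206), a 3.18-fold decrease. *Slfn2* rose by 2.19 with LPS (standard error 0.14, adjusted p = 0.00448), or 4.57-fold. Its difference between LPS+USP7i and LPS, -0.70 (standard error 0.14, adjusted p = 0.0683), did not pass the threshold of 0.05.

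*Slfn3*, an intermediate form studied mainly in T cells and gut epithelium, gave 6.60 on both untreated arrays, 10.14 and 10.12 with LPS, and 8.76 and 9.33 in LPS+USP7i. *Slfn4*, a myeloid form known to be induced through TLRs and type I interferon, gave 5.35 and 4.04 without treatment, 9.09 and 8.47 after LPS, and 6.31 and 5.69 in LPS+USP7i. Again the LPS arrays were highest and the untreated arrays lowest, with no overlap. *Slfn4* was well above background on 1 of the 2 untreated arrays, and on both arrays of the other groups. With LPS, *Slfn3* rose by 3.53 (standard error 0.21, adjusted p = 0.00403), or 11.5-fold. *Slfn4* rose by 4.08 (standard error 0.56, adjusted p = 0.0176). In LPS+USP7i minus LPS neither gene passed, with -1.08 for *Slfn3* (standard error 0.21, adjusted p = 0.0619) and -2.77 for *Slfn4* (95% interval -4.31 to -1.24, adjusted p = 0.0673). Both LPS+USP7i arrays of each gene nevertheless lay below both LPS arrays.

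Of the long forms, *Slfn8* (brighter probe, chr11:82815804-82815863) stood at 12.56 and 12.09 without treatment, 15.52 and 15.46 after LPS, and 13.67 and 14.15 in LPS+USP7i. The brighter *Slfn9* probe (chr11:82793812-82793871) stood at 8.63 and 8.43, at 11.23 and 11.18, and at 9.12 and 9.50 in the same order of groups. The LPS+USP7i arrays of *Slfn9* lay nearer to the untreated than to the LPS arrays, and no groups overlapped for either gene. *Slfn8* rose by 3.17 with LPS (standard error 0.24, adjusted p = 0.00569), 8.97-fold, and fell by 1.58 in LPS+USP7i relative to LPS (standard error 0.24, adjusted p = 0.0403), 2.99-fold. *Slfn9* rose by 2.67 (standard error 0.16, adjusted p = 0.00403), 6.38-fold, and fell by 1.89 (standard error 0.16, adjusted p = 0.0162), 3.71-fold. The dimmer *Slfn9* probe, the one with the stretch shared with *Slfn8*, rose by 2.997 and fell by 2.104 (adjusted p = 0.00551 and 0.0223). The dimmer *Slfn8* probe, which shares no such stretch with another of the compared probes, rose by 3.096 (adjusted p = 0.00994), while its LPS+USP7i difference of -1.25 did not pass (adjusted p = 0.113).

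*Slfn5*, a long form that is induced by interferon in many cell types and acts in the nucleus, was the exception. Its brighter probe (chr11:82765536-82765595) gave 11.64 and 11.36 without treatment, 11.82 and 11.64 after LPS, and 11.81 and 11.38 in LPS+USP7i, so the LPS+USP7i arrays overlapped both other groups. The differences were 0.23 for LPS minus untreated (95% interval -0.31 to 0.78, adjusted p = 0.553) and -0.13 for LPS+USP7i minus LPS (95% interval -0.68 to 0.41, adjusted p = 0.788). This probe was designed on 1 Ensembl transcript with no RefSeq match, near its beginning. The dimmer *Slfn5* probe, 9371 bases further along the chromosome at chr11:82774907-82774966, was designed on the RefSeq mRNA and behaved otherwise. It gave 7.37 and 7.12 without treatment, 10.25 and 9.59 after LPS, and 8.37 and 8.82 in LPS+USP7i, with no overlap between groups. It rose by 2.67 with LPS (standard error 0.30, adjusted p = 0.0115), 6.37-fold, and its difference between LPS+USP7i and LPS was -1.32 (standard error 0.30, adjusted p = 0.0862). With the mean of both probes in place of the brighter one, *Slfn5* passed in LPS minus untreated as well, with 1.45 (adjusted p = 0.0116; range over all alternatives 0.0116 to 0.961).

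Among the p200 genes, *Ifi204* encodes p204, a DNA sensor that signals through STING and also binds the retinoblastoma protein. Its brighter probe (chr1:175677647-175677706) stood at 15.62 and 15.35 without treatment, 17.07 and 16.98 after LPS, and 16.40 and 16.67 in LPS+USP7i. These groups did not overlap, but the LPS+USP7i arrays lay close under the LPS arrays. *Ifi204* rose by 1.54 with LPS (standard error 0.15, adjusted p = 0.00832), 2.92-fold, the smallest rise among the 8 genes that passed. In LPS+USP7i minus LPS it gave -0.49 (standard error 0.15, adjusted p = 0.152). The dimmer *Ifi204* probe gave 2.04 (adjusted p = 0.0118) and -0.84 (adjusted p = 0.130).

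*Ifi203* encodes a p200 protein found in the nucleus and was read by 4 probes along chr1:175850536-175854265. The brightest stood at 12.61 and 12.41 without treatment, 15.07 and 15.21 after LPS, and 13.21 and 13.65 in LPS+USP7i, with no overlap between groups. It rose by 2.63 with LPS (standard error 0.18, adjusted p = 0.00500), 6.20-fold, and fell by 1.71 in LPS+USP7i relative to LPS (standard error 0.18, adjusted p = 0.0224), 3.26-fold. All 4 probes were higher with LPS past the threshold, by 2.63 to 4.85, and their LPS+USP7i differences ran from -2.02 to -0.86, of which 3 passed. The probes disagreed most on how far LPS+USP7i cells stood above untreated cells. The brightest probe gave 0.92 (adjusted p = 0.0535), the second 3.33 (adjusted p = 0.00485), the third 3.50 (adjusted p = 0.00967), and the dimmest 1.36 (adjusted p = 0.0141). Whether these differences between probes of the same gene exceed the spread was not tested.

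**Figure D1:**
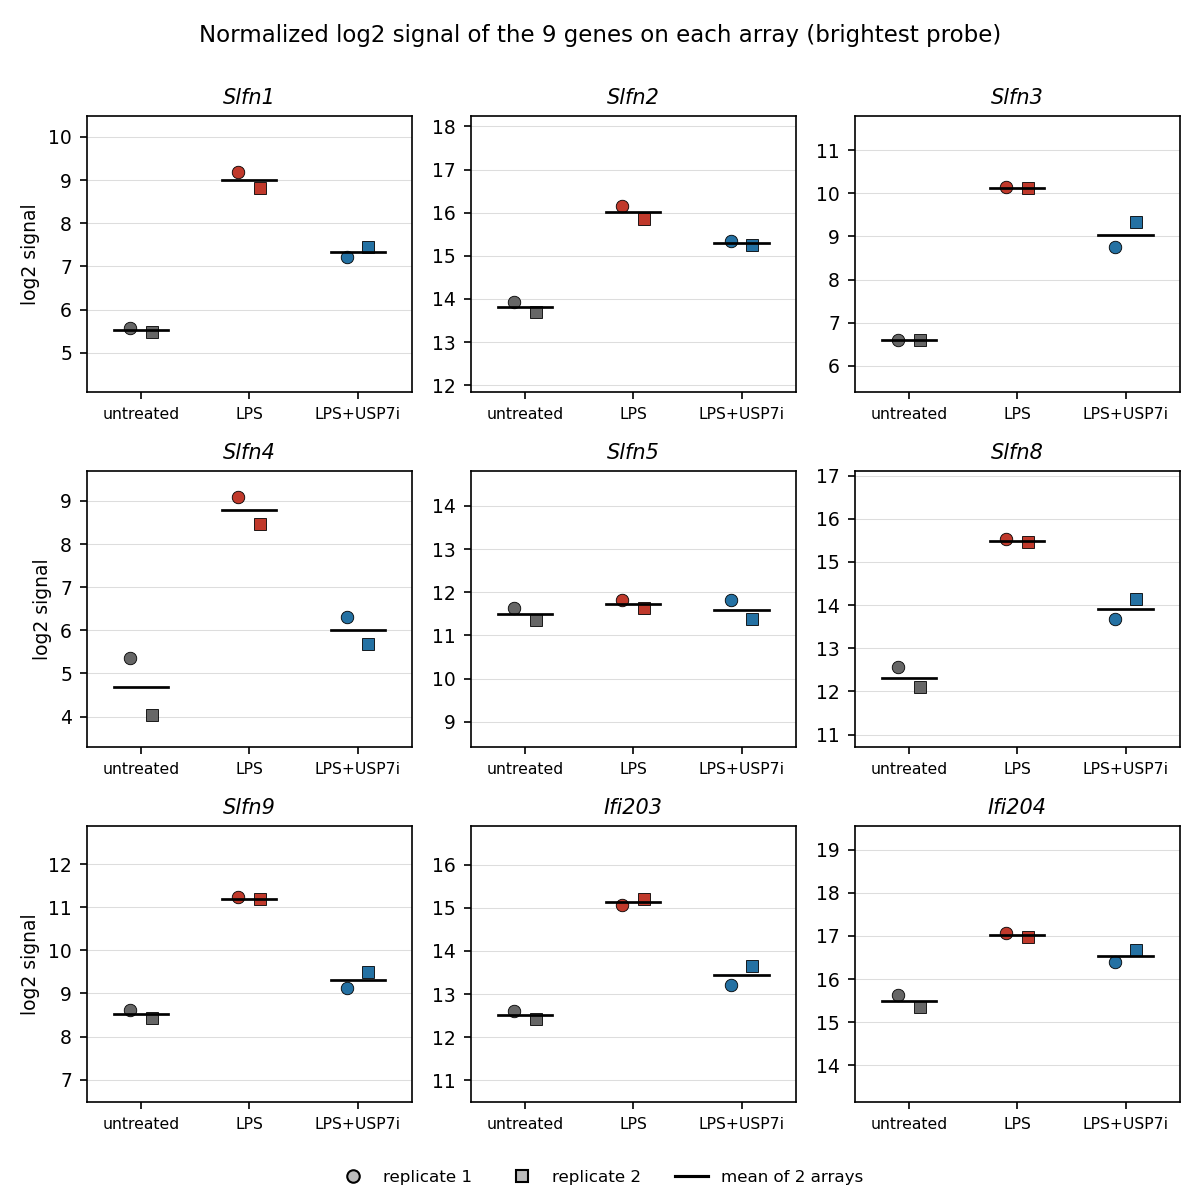
Quantile-normalized log2 signal of the brightest probe of each of the 9 genes on the 6 arrays, with 1 panel per gene, circles for replicate 1, squares for replicate 2, and a line at the mean of the 2 arrays of a group. Each panel spans the same log2 range around its own mean; in all panels but that of *Slfn5* the LPS arrays are highest, the untreated arrays lowest, and the LPS+USP7i arrays between them.

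**Figure D2:**
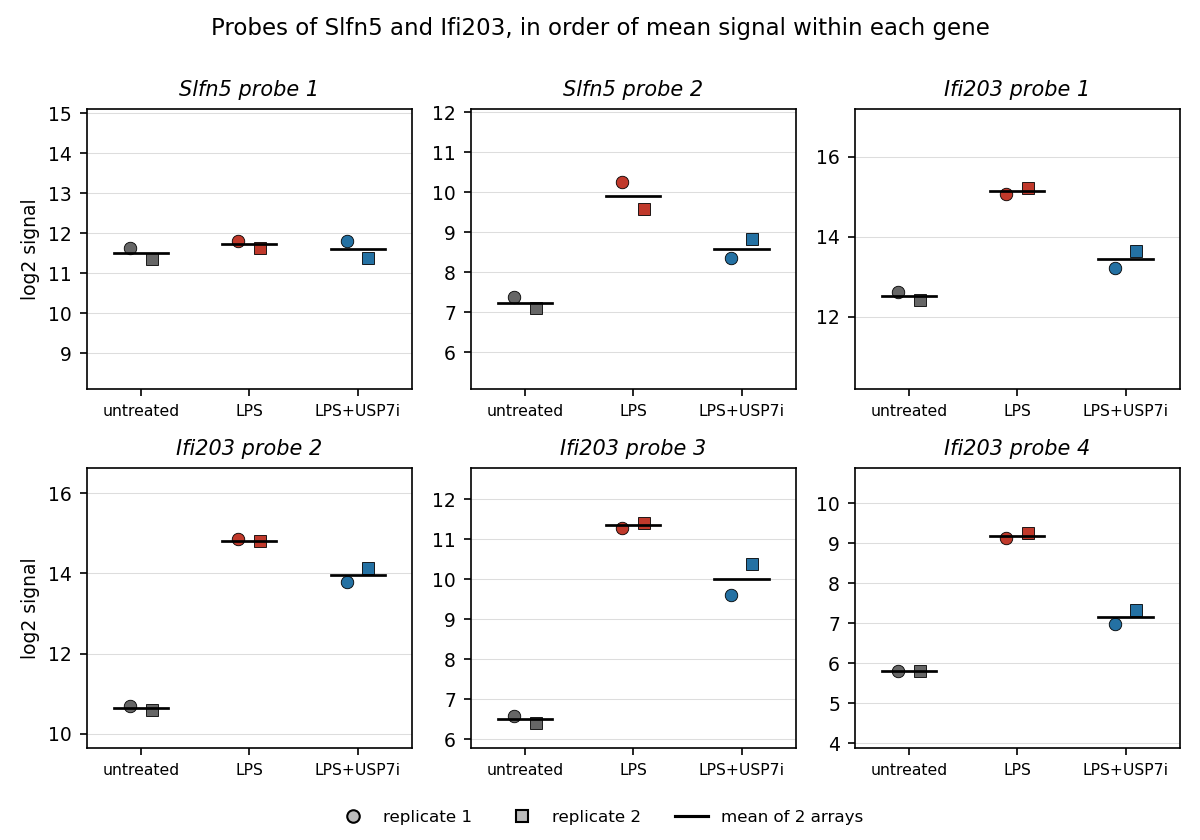
Quantile-normalized log2 signal of the 2 *Slfn5* probes and the 4 *Ifi203* probes on each array, numbered from the brightest to the dimmest within a gene, with symbols as for the gene panels. *Slfn5* probe 1 moves by 0.23 between the means of untreated and LPS cells, and *Slfn5* probe 2 by 2.67; the 4 *Ifi203* probes all rise with LPS, by 2.63 to 4.85.

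LPS minus untreated asked which genes responded to LPS. Of the 9 genes, 8 were higher with LPS (adjusted p under 0.05, limma) and 0 were lower, beside 7.99% of all gene names that were higher and 12.7% that were lower. At an unadjusted p under 0.05 the count of lower genes was also 0. The gene that did not pass was *Slfn5* by its brighter probe. *Slfn4* lost its call without untreated replicate 2, LPS replicate 1, or LPS replicate 2, and *Ifi204* without LPS replicate 1. With normexp background correction the rises of *Slfn1* and *Slfn4* were 2.16 and 2.38 and both passed. The median log2 difference was 2.67 over the 9 genes, 3.17 over the 7 Schlafen genes, and 2.09 over the 2 p200 genes, beside 0.0018 over all gene names. Replicate 1 alone gave a median of 2.60 for the 9 genes and replicate 2 alone 2.80. With each array scaled to its 75th percentile, in place of quantile normalization, the median over all gene names shifted to 0.40 in this comparison and to 0.44 in LPS+USP7i minus untreated. Under that scaling higher genes made up 75% of all calls in LPS minus untreated, against 38.6% in the main fit, and 78.4% against 41.2% in LPS+USP7i minus untreated. In LPS minus untreated 12185 of all gene names were higher under that scaling, against 2784 in the main fit. The median of the 9 genes stood 2.71 above the shifted median in the first of these comparisons and 1.06 above it in the second.

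LPS+USP7i minus LPS asked what the inhibitor changed in LPS-stimulated cells. It uses the same LPS arrays as LPS minus untreated, so the values of both comparisons are linked through them. Lower past the threshold were 4 of the 9 genes, *Slfn1*, *Slfn8*, *Slfn9*, and *Ifi203*, and 0 were higher, beside 4.29% and 5.42% of all gene names. At an unadjusted p under 0.05, 8 were lower and 0 were higher. For no fit of any comparison here is the share of all gene names at that unadjusted threshold given. Such counts therefore stand without a background. All 9 differences were below 0, with a median of -1.58 over the 9 genes, -1.58 over the Schlafen genes, and -1.10 over the p200 genes, beside 0.00016 over all gene names. The sign for *Slfn5* turned when LPS+USP7i replicate 2 was left out, and the difference of *Slfn4* was -1.85 and passed with normexp (adjusted p = 0.00259). With normexp, however, 2402 of all gene names were lower in this comparison, against 1496 in the main fit. No such count is given for dim probes left out. Replicate 1 alone gave a median of -1.85 for the 9 genes and replicate 2 alone -1.31. In the limma fit with only the LPS and LPS+USP7i arrays, which leaving out untreated replicate 1 or untreated replicate 2 merely repeats, and in the fit without LPS replicate 1, 0 genes passed, while 8 and 7 were lower at an unadjusted p under 0.05; with normexp or with dim probes left out 7 passed, as *Slfn2*, *Slfn3*, and *Slfn4* were added. Without LPS replicate 2 only *Slfn1* passed, *Slfn8* lost its call also without LPS+USP7i replicate 1 or 2, and *Slfn1* without LPS+USP7i replicate 1; *Slfn3* passed without LPS+USP7i replicate 1 or 2, which left 3 and 4 genes lower.

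LPS+USP7i minus untreated sets cells given both agents against cells given neither. No group received the inhibitor alone, so an effect of the inhibitor by itself cannot be told from a remaining response to LPS. Here 5 of the 9 genes, *Slfn1*, *Slfn2*, *Slfn3*, *Slfn8*, and *Ifi204*, were higher than in untreated cells and 0 were lower, beside 6.15% and 8.78% of all gene names. *Slfn3* stood 2.44 above untreated cells (standard error 0.21, adjusted p = 0.00998), *Slfn1* 1.81 (standard error 0.17, adjusted p = 0.0112), *Slfn8* 1.59 (standard error 0.24, adjusted p = 0.0290), *Slfn2* 1.49 (standard error 0.14, adjusted p = 0.0117), and *Ifi204* 1.05 (standard error 0.15, adjusted p = 0.0244). *Slfn9*, with 0.78 (adjusted p = 0.0552), and *Ifi203*, with 0.92 (adjusted p = 0.0535), missed the threshold. Both passed with 75th percentile scaling, normexp, dim probes left out, or a trended prior (7 genes higher in each). Under 75th percentile scaling, however, 12217 of all gene names were higher, against 2144 in the main fit. *Slfn9* gave 0.81 under that scaling, with the median of all gene names at 0.44. With normexp 2729 gene names were higher, and no such count is given for dim probes left out or a trended prior. *Slfn4* missed the threshold as well, with 1.31 (95% interval -0.23 to 2.85, adjusted p = 0.267). *Slfn5* gave 0.10 by its brighter probe (95% interval -0.45 to 0.65, adjusted p = 0.884), with its sign turned without untreated replicate 2 or without LPS+USP7i replicate 1. The dimmer *Slfn5* probe gave 1.35 (adjusted p = 0.0686), and the mean of both probes gave 0.72 (adjusted p = 0.0780). The median of the 9 was 1.31, with 0.96 in replicate 1 and 1.56 in replicate 2, beside -0.0022 over all gene names. The values 1.31 and 0.96 are those of *Slfn4*, above background on only 1 untreated array, so they are no exact folds. Without untreated replicate 1 or without untreated replicate 2 limma called 0 genes, while an unadjusted p under 0.05 was reached by 8 and 7; *Slfn8* and *Ifi204* lost their calls with 2 groups in the fit, which leaving out LPS replicate 1 or LPS replicate 2 repeats, and without LPS+USP7i replicate 2, and *Slfn8* and *Slfn2* without LPS+USP7i replicate 1. With normexp background correction *Slfn1* gave 0.87, and *Slfn4* gave 0.54 with it, 1.96 without untreated replicate 1, and 0.65 without untreated replicate 2, while the mean of all probes gave *Ifi203* 2.28 (adjusted p = 0.00746).

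Taking the comparisons array by array, 8 of the 9 genes had all LPS arrays above all LPS+USP7i arrays and these above all untreated arrays, an order that 5.27% of 34814 gene names showed. The exception was *Slfn5* by its brighter probe. The p values in all of this measure only the spread between these arrays, and an exact permutation test for a single gene, 2 arrays against 2, could not reach a two-sided p lower than 0.333.

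**Figure D3:**
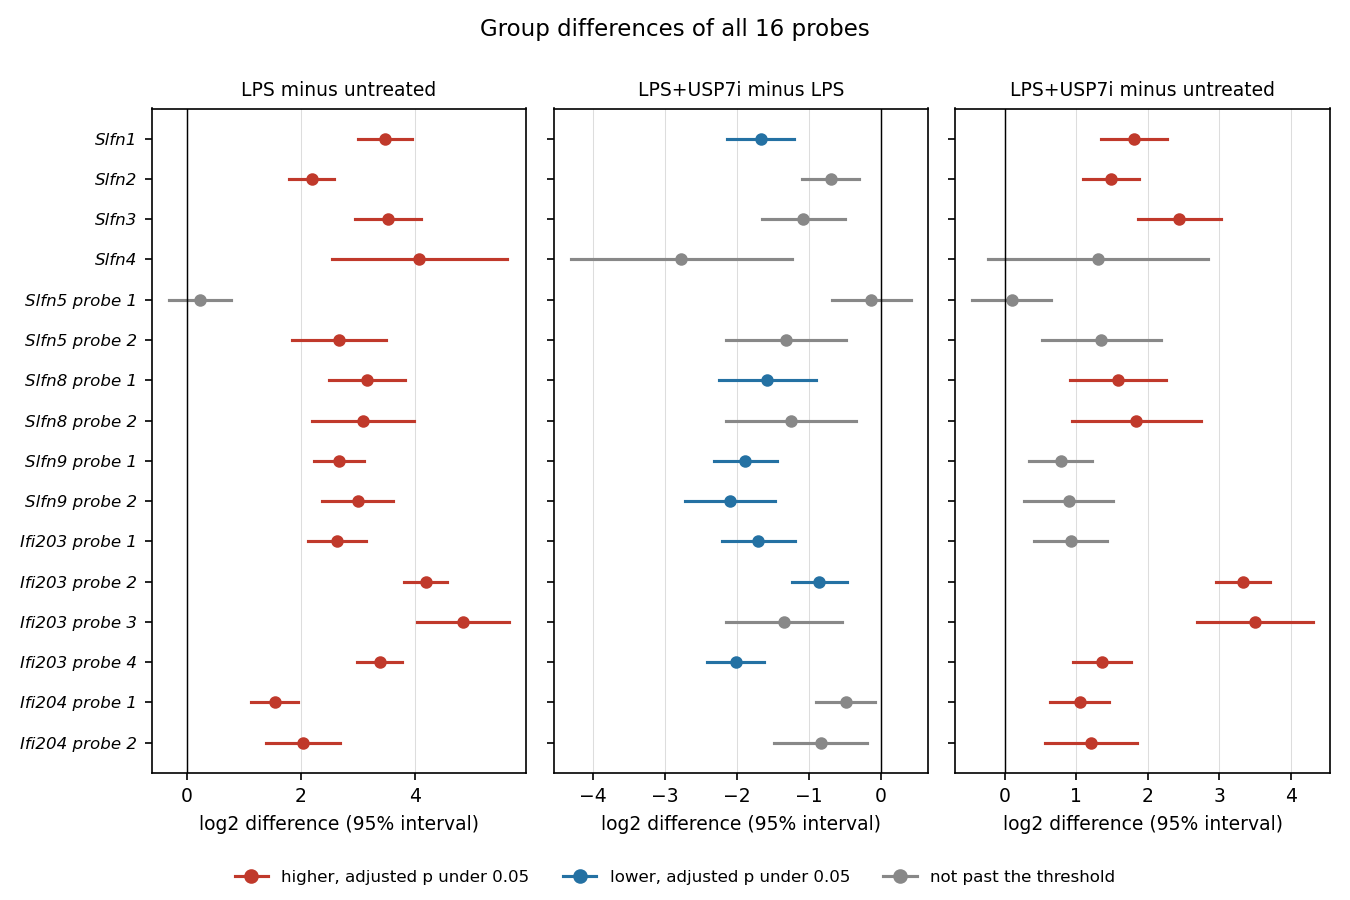
Log2 differences of the 16 probes in each comparison with 95% intervals from limma, red where higher and blue where lower past an adjusted p of 0.05, gray otherwise; probes of a gene are numbered from the brightest. Every probe but *Slfn5* probe 1 is red for LPS minus untreated, and all 16 points lie below 0 for LPS+USP7i minus LPS.

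Promoters are shown for the 4 genes lower in LPS+USP7i than in LPS, because interferon-inducible genes often carry an interferon-stimulated response element near their start. RefSeq promoters (build GRCm38.p6, 250 bases before to 50 after a start) were matched by symbol for 9 of the 10 listed genes, with 11 promoters in all, and searched on both strands for 3 motifs. The interferon element was spelled GAAANNGAAA, the GAS element, known from genes induced by interferon γ, was spelled TTCNNNGAA, and the NF-κB site is named here as the κB motif. *Ifi204* had no entry. The interferon element was present for 5 of the 9 genes, *Slfn5*, *Slfn8*, *Slfn9*, *Ifi203*, and *Ifi205*, of which *Ifi205* has no spot. Counted by promoter it was in 6 of the 11, beside 3.44% of all 32851 promoters of this length. The κB motif was in 3 of the 11, 1 each of *Slfn1*, *Slfn9*, and *Ifi203*, beside 8.46% of all promoters, and the GAS element in 0, beside 8.30%. In the windows of *Slfn2*, *Slfn3*, and *Slfn4* none of the 3 spellings occurred. *Slfn8* and *Slfn9* held the same 10 letters of the interferon element, TTTCGTTTTC, beginning 48 and 45 bases before the start. *Ifi203* held GAAATCGAAA beginning 35 bases before its start, and the windows of 6 relatives, *Mndal*, *Ifi206*, *Ifi207*, *Ifi208*, *Ifi213*, and *Ifi214*, held the same letters beginning 36, 40, 41, 58, 73, and 79 bases before theirs. *Slfn8* and *Ifi203* have 2 starts each, of which 1 is printed. From the other *Slfn8* start the same match begins 136 bases before, and the other *Ifi203* window (chr1:173942623-173942922) holds no interferon element but the κB motif. Capitals mark the matches, which do not overlap each other; a match is a run of letters and not a measured binding site.
*Slfn8*, chr11:83020761-83021060, minus strand: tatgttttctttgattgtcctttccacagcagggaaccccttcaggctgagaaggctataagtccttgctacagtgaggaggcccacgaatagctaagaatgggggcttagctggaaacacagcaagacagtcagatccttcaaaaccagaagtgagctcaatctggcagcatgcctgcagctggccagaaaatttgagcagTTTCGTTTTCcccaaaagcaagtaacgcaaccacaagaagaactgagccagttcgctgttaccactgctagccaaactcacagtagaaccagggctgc
*Slfn9*, chr11:82991781-82992080, minus strand: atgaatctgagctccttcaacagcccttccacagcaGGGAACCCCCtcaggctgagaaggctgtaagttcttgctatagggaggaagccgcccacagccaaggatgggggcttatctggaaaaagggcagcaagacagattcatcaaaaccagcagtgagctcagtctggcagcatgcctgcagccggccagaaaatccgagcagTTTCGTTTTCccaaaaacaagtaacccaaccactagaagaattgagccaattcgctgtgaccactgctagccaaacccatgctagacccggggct
*Ifi203*, chr1:173942443-173942742, minus strand: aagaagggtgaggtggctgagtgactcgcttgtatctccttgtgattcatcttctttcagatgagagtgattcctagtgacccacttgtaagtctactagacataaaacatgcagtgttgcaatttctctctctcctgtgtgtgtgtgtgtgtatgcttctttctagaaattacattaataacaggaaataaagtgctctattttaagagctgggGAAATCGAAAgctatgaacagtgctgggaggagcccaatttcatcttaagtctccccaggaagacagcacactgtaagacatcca
*Slfn1*, chr11:83116570-83116869, plus strand: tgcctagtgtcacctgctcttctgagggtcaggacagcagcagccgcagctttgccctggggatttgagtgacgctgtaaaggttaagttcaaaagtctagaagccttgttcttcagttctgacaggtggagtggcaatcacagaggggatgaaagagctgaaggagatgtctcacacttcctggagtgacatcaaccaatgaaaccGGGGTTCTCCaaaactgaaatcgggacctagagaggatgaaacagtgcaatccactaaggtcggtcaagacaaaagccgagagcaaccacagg

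In these windows *Slfn9* carried both an interferon element and, beginning 214 bases before the start, a κB motif, and *Slfn1* only a κB motif, beginning 43 bases before the start. *Slfn5*, whose window held the interferon element beginning 155 bases before the start, was not among the genes lower in LPS+USP7i than in LPS by either probe. *Slfn2*, *Slfn3*, and *Slfn4*, without a match in their windows, had differences of 2.19, 3.53, and 4.08 in LPS minus untreated. Whether a match bears on any of these differences was not tested.

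Relatives of the 9 genes were taken from a list of 20 Schlafen and p200 names, of which 9 were on the array under those names. A probe named *Slfn14-ps*, which RefSeq gives to *Slfn14*, was used above in the comparison of probe sequences but is not among the 9. With LPS 8 of the 9 were higher and 0 were lower. Their median of 2.46 is the value of *Ifi202b*, which was above background on 0 untreated arrays and 1 LPS array. This value is therefore no fold, and no lower bound is given for the LPS rise of that gene. In LPS+USP7i minus LPS, 3 were lower and 1 was higher, with a median of -1.17, and in LPS+USP7i minus untreated 5 were higher and 0 lower, with a median of 1.39. *Aim2*, the DNA sensor of an inflammasome, gave 7.33 and 7.40 without treatment, 9.42 and 9.75 after LPS, and 7.16 and 8.03 in LPS+USP7i. Its LPS+USP7i arrays lay on both sides of the untreated arrays. *Aim2* rose by 2.22 with LPS (adjusted p = 0.0216) and fell by 1.99 in LPS+USP7i relative to LPS (adjusted p = 0.0467). Calls of the relatives and of the pathway genes below were not followed under the alternative fits. With 2 groups in the fit, 0 members passed in LPS+USP7i minus LPS. *Pydc3*, now named *Ifi208*, fell by 1.93 by the brightest of its 4 probes (adjusted p = 0.0444), and the Schlafen pseudogene *Slfn10-ps* fell by 1.13 (adjusted p = 0.0303), after LPS rises of 3.23 and 2.19 (adjusted p = 0.00851 and 0.00479). Of the other *Pydc3* probes 1 passed and 2 did not (adjusted p = 0.0611 and 0.0716). *Pydc4* and *Pyhin1*, which did not pass by their brightest probes, each had a dimmer one that was lower, by 2.66 and 1.735 (adjusted p = 0.0184 and 0.0363).

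*Ifi202b* went the other way. It encodes a p200 protein without a pyrin domain that can bind DNA and hold AIM2 back, and its expression is known to be low in C57BL/6 mice. The brighter of its probes gave 2.30 and 2.31 without treatment, 4.43 and 5.10 after LPS, and 7.60 and 6.76 in LPS+USP7i. It was well above background on 0 of the untreated arrays, on 1 LPS array, and on both LPS+USP7i arrays. The LPS+USP7i arrays lay above both LPS arrays, with a difference of 2.42 (standard error 0.38, adjusted p = 0.0422). For *Ifi202b* this is no exact fold, because only 1 LPS array was well above background. Against untreated cells it was at least 9.66-fold higher in LPS+USP7i (adjusted p = 0.00873), a bound that gives each untreated array the dimmest value still counted as well above background there. The dimmer *Ifi202b* probe gave 2.26 for LPS+USP7i minus LPS, which did not pass (adjusted p = 0.0652). *Mnda* is named because its probe lists transcripts of both *Ifi211* and *Ifi205* in RefSeq, so it could read *Ifi205*; it was picked out after its values were seen. It gave 12.31 and 11.87 without treatment, 16.13 and 16.09 after LPS, and 14.44 and 15.06 in LPS+USP7i, again without overlap. This probe rose by 4.01 with LPS (adjusted p = 0.00476), and its LPS+USP7i difference from LPS was -1.36 (adjusted p = 0.0665).

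Genes of the route from TLR4 to interferon were listed next to see the members beside it. Of 11 genes for interferon induction, 6 were higher and 2 lower with LPS, and for LPS+USP7i minus LPS the counts were 1 and 3, with medians of 0.67 and -0.25. *Cd14*, the LPS co-receptor, fell by 1.33 in LPS+USP7i relative to LPS (adjusted p = 0.0176), and *Ikbke*, a kinase that activates IRF3, fell by 1.65 (adjusted p = 0.0293). *Ticam2*, the adaptor that brings TRIF to TLR4, was not well above background on either LPS+USP7i array and was at least 7.87-fold lower than with LPS (adjusted p = 0.0184). *Traf3*, which links TRIF to these kinases, was 1.48 higher (adjusted p = 0.0128). *Ifnb1*, the gene of interferon β, was chosen after its values were seen. It gave 4.80 and 4.34 in untreated cells, where 1 of 2 arrays was above background, 12.02 and 12.85 with LPS, and 12.87 and 12.51 in LPS+USP7i. The LPS and LPS+USP7i arrays of *Ifnb1* overlapped, and their difference was 0.26 (standard error 0.36, adjusted p = 0.772).

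In the list for the response to interferon, 6 of 10 genes were higher and 0 lower with LPS, and for LPS+USP7i minus LPS the counts were 0 and 4, with medians of 1.01 and -0.77. *Ifnar1*, a chain of the type I interferon receptor, fell by 0.97 relative to LPS (adjusted p = 0.0379), and *Tyk2*, a kinase bound to that chain, fell by 1.68 (adjusted p = 0.0120). *Irf8*, a myeloid interferon regulatory factor, fell by 3.14 (adjusted p = 0.0139), and *Usp18*, which dampens receptor signaling, fell by 1.76 (adjusted p = 0.0298). *Ifnar1*, *Tyk2*, and *Irf8* were also below untreated cells, by 1.14, 0.69, and 1.71 on the log2 scale (adjusted p = 0.0196, 0.0263, and 0.0211). Against untreated cells, 3 genes of this list were higher and 3 lower, with a median of 0.17, and 4 genes of the induction list were higher and 2 lower, with a median of 0.43.

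The list for cytosolic DNA sensing, where p200 proteins act, had 8 of its 11 names on the array. With LPS 3 were higher and 0 lower, and in LPS+USP7i minus LPS 2 were lower and 0 higher, with medians of 0.11 and -0.52. The 2 were *Tmem173*, the gene of STING, which fell by 0.83 (adjusted p = 0.0212), and *Pycard*, the gene of the inflammasome adaptor ASC, which fell by 1.36 (adjusted p = 0.0256). Neither had passed in LPS minus untreated, with -0.24 (adjusted p = 0.168) and -0.12 (adjusted p = 0.754). In LPS+USP7i minus untreated 2 genes of the list were higher and 3 lower, with a median of -0.0057.

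**Figure D4:**
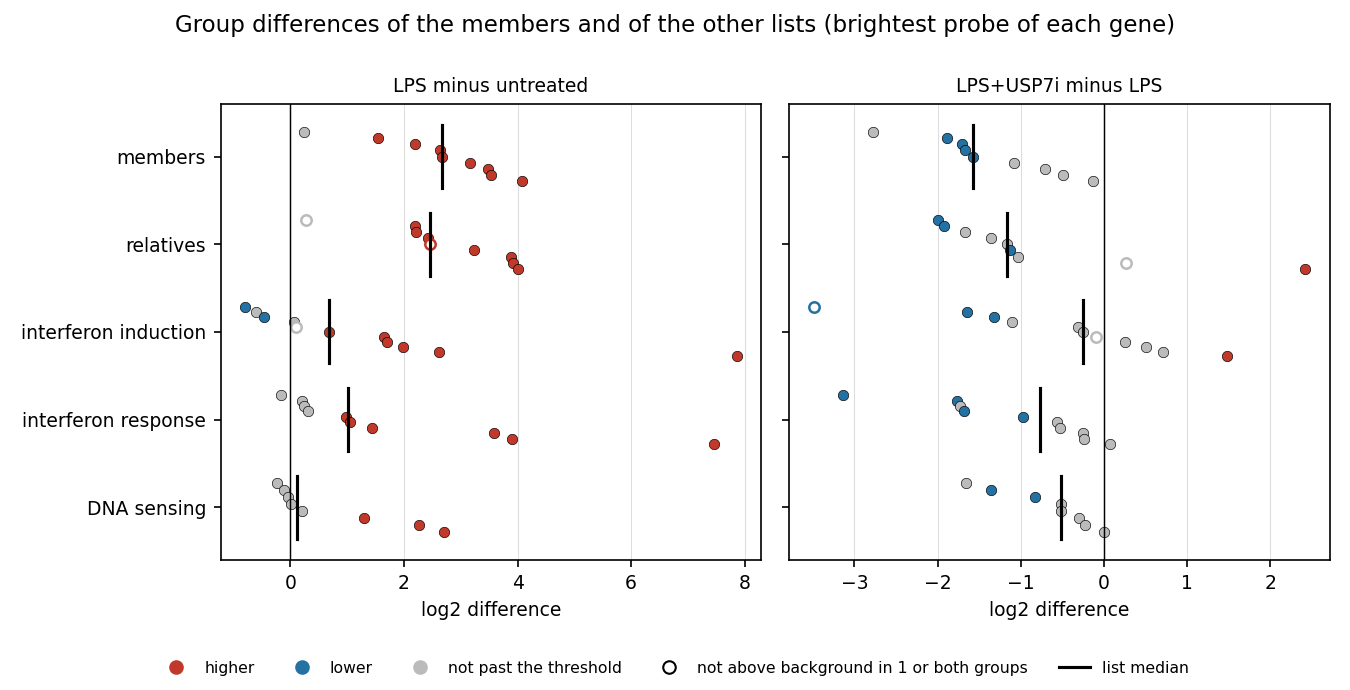
Log2 differences of the 9 members, their 9 relatives, and the genes of the lists for interferon induction, interferon response, and DNA sensing, for LPS minus untreated on the left and LPS+USP7i minus LPS on the right, with 1 point per gene and a line at each list's median. Open circles stand for genes well above background on no array of 1 or both groups, whose differences are not folds. *Slfn4* and *Ifnb1* on the left and *Ifi202b* on the right are filled. Each was above background on only 1 array of a group there, so its difference is no exact fold. The member medians are 2.67 and -1.58.

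How alike the members ran was measured on profiles over the 6 arrays, each centered on its own mean. *Slfn9* and *Ifi203* were the closest pair, each the other's nearest, with a root mean square difference of 0.098 on the log2 scale, followed by *Slfn1* and *Slfn8* with 0.21. *Slfn4* and *Slfn5* stood farthest from their nearest member, at 0.63 and 0.59. Among 15601 other gene names above background on every array, the profiles closest to the Schlafen median were those of *Irgm2*, an interferon-induced GTPase, and an unnamed probe, at 0.125 and 0.135. Closest to the p200 median were a transcript without a gene symbol and the Schlafen pseudogene *Slfn10-ps*, at 0.060 and 0.061. These are descriptions over 6 arrays and carry no test.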

How the data were processed

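RNA of BMDMs was hybridized to 1-color Agilent mouse arrays. The authors deposited scanner output (Feature Extraction 10.7.3.1, build mm9) with the background-corrected intensity of each spot on a linear scale, and a table of log2 values whose columns have medians of 5.07 to 5.10; the methods of the study give limma with quantile normalization for these data, and the table served as an alternative. Here log2 processed intensity was quantile-normalized, spots flagged as outliers (119 to 172 per array) were left out, and spots of a probe were averaged. All 6 arrays entered 1 limma fit (limma 3.58.1, R 4.3.3), with Benjamini-Hochberg adjustment over 55680 probes and a threshold of 0.05. The fit was tried on simulated data with independent noise and changes in LPS+USP7i minus LPS larger than those of the members. Such data do not show how it performs at the sizes of the member differences. A gene was represented by its brightest probe. Medians planned over 10 genes cover the 9 on the array. Pathway genes are given with values where they passed in LPS+USP7i minus LPS, besides *Ifnb1* and *Mnda*. Profiles were compared by root mean square difference. Of the planned list for the interferon response 1 gene, and of the planned nearest profiles 1 per family, are not reported here. The members and lists were chosen with earlier results of these data known. Alternatives were another scaling, normexp with an offset of 50, the deposited table, dim probes left out, a trended prior, flagged spots kept, 2 groups in a fit, a replicate block, the mean over probes, a log2 difference of at least 1, and each array left out. Single genes other than the members were not followed under these alternatives. Python 3.11 with pandas and matplotlib handled sequences and figures.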

Additional observations from a re-analysis of the deposited data

How the results depend on the processing

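In LPS minus untreated, the number of members higher stayed between 6 and 9 under all alternatives, and *Slfn4* lost its call without untreated replicate 2, without LPS replicate 1, or without LPS replicate 2 (adjusted p = 0.0542, 0.0869, and 0.0634) and *Ifi204* without LPS replicate 1 (adjusted p = 0.0506). The median member difference there moved from 2.67 to 3.11 with 75th percentile scaling, 2.38 with normexp, and 3.13 with the mean of all probes. In LPS+USP7i minus LPS, 7 members were lower with normexp, 7 with dim probes left out, and 0 with 2 groups in the fit; with each array left out the count ran from 0 to 4. In LPS+USP7i minus untreated, 3 members were higher with 2 groups in the fit, from 0 to 5 with each array left out, and 7 with 75th percentile scaling, normexp, dim probes left out, or a trended prior, where *Slfn9* and *Ifi203* were added. Under 75th percentile scaling 12217 of all gene names were also higher in LPS+USP7i minus untreated, against 2144 in the main fit. With normexp 2402 of all gene names were also lower in LPS+USP7i minus LPS, against 1496 in the main fit. The cause of these shifts was not tested. A lone array is taken to vary like the other groups, and leaving out an array of the group not compared repeats the fit of 2 groups, counted once below. The labels number the replicates alike in each group without saying that a number pairs them. Deviations of same-numbered arrays correlated with 0.468 (untreated and LPS), 0.398 (untreated and LPS+USP7i), and 0.421 (LPS and LPS+USP7i) over 20705 probes, and same-numbered arrays also share a slide position index. With a replicate block, 8 members were higher in LPS minus untreated, 4 lower in LPS+USP7i minus LPS, and 3 higher in LPS+USP7i minus untreated. *Slfn4* came in (adjusted p = 0.0396) and *Slfn8* dropped out (0.0786) in the second, and *Slfn8* (0.0622) and *Ifi204* (0.0531) dropped out in the last. In LPS+USP7i minus LPS and in LPS+USP7i minus untreated, *Slfn5* was called under none of these alternatives. In the first its difference was -0.35 without LPS+USP7i replicate 1 and turned to 0.081 without LPS+USP7i replicate 2. In the second it was 0.32 without LPS+USP7i replicate 2. There it turned to -0.041 without untreated replicate 2 and to -0.12 without LPS+USP7i replicate 1. In LPS minus untreated *Slfn5* was called with the mean of all probes (adjusted p = 0.0116). Of the other differences of single members under an alternative, 313 kept their sign and their side of the threshold, 37 kept the sign and lost the call, and 25 kept the sign and gained one. *Slfn4* in untreated cells, above background on 1 of 2 arrays, is the member level that signal over background limits.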
